A study of Mus musculus with 6 samples.

Results

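The genes described are the 3 D-type cyclins Ccnd1, Ccnd2 and Ccnd3, their kinases Cdk4 and Cdk6, and 5 inhibitors of cyclin-dependent kinases (CDKs), Cdkn1a, Cdkn1b, Cdkn2a, Cdkn2c and Cdkn2d. They were taken by gene symbol from the array's probe set annotation. A probe set paired with 1 symbol was found for 9 of the 10 genes, of 19936 genes measured in this way, and Cdkn1b had a further one. Cdkn1a shared its only probe set with a second gene, so that signal cannot be assigned to it. The cells were BCR-ABL1 transformed pre-B cells of wild-type C57Bl6 mice aged 4 weeks, a model of Philadelphia chromosome-positive acute lymphoblastic leukaemia, and every sample carried the BCR-ABL1 oncogene. One group was transduced with the empty retroviral vector pMIG and the other with pMIG-IKZF1, which adds the gene for Ikaros, a transcription factor with zinc fingers. Cells that expressed the vector's reporter, green fluorescent protein (GFP), were sorted on day 3, and total RNA was run on Affymetrix arrays, 3 per group. The labels give neither the species nor the isoform of the IKZF1 insert. They also do not tie the arrays to separate cultures or mice, so the spread behind each p-value could be purely technical.

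D cyclins bind CDK4 or CDK6 in G1 phase of the cell cycle, and the active kinases phosphorylate the retinoblastoma protein, which releases E2F transcription factors and opens the way into S phase. Inhibitors of the INK4 family (the products of Cdkn2a, Cdkn2b, Cdkn2c and Cdkn2d) bind CDK4 and CDK6 and keep D cyclins off them, whereas the CIP/KIP proteins (the products of Cdkn1a, Cdkn1b and Cdkn1c) bind complexes of a cyclin and its kinase. In B cell development this machinery is set by pre-B cell receptor and cytokine signals, which drive large pre-B cells to divide before they become small and resting. BCR-ABL1 supplies a constant proliferative signal of the kind that cytokine receptors give.

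Ikzf1, the transduced gene, was at log2 levels of 11.85, 11.78 and 11.98 on empty vector arrays 1 to 3 and of 13.09, 13.14 and 13.06 on IKZF1 arrays 1 to 3, so that no empty vector array reached any IKZF1 array. All levels are log2(intensity + 1), and differences are IKZF1 minus empty vector on that scale. Of 12 B-lineage markers 11 were measured, all with a mean over the 6 arrays above the background level of 6.18. That level is the 95th percentile of olfactory and vomeronasal receptor genes, and the counts of other markers use the same mean. Rag2 was below it on empty vector 2 (5.53) and IKZF1 2 (6.04), and reached 8.95 on empty vector 3. The summed intensity of the 11 was 54612 to 58186 with empty vector and 56482 to 58312 with IKZF1. Of 10 granulocyte markers 3 lay above background, and the summed intensity of all 10 was 558 to 603 with empty vector and 1282 to 1855 with IKZF1. One of them, Ly6g, named after its values were seen, was at most 5.76 with empty vector, within background, and rose to between 9.61 and 10.38 with IKZF1 (difference 4.47, limma adjusted p = 0.0014), and the sum of the other 9 was 509 to 550 against 501 to 571. Of 9 macrophage and monocyte markers 3 lay above background, Cd68, Lyz2 and Mrc1, and Csf1r and Adgre1 were among those within it. The summed intensity of all 9 was 719 to 768 with empty vector against 667 to 720 with IKZF1. Of 10 stromal and endothelial markers 4 lay above background, Pecam1 and 3 collagen genes. The summed intensity of all 10 was higher with IKZF1 (2392 to 2528 against 1772 to 2180). Pdgfrb and Cdh5 were within background. For T and NK cells 4 of 10 lay above it (4012 to 5542 against 4279 to 5191 for all 10). For erythroid cells 2 of 4 did (276 to 284 against 278 to 332 for all 4). The part of such cells in the results was not tested. Empty vector 3 stood apart at one end of the first principal component, at -41.7 where the other arrays lay between -2.73 and 24.5. Arrays with the same number deviated together, so results are also given with replicate number as a block and, for the 9 genes, without empty vector 3. In the wider lists described below, the fit without empty vector 3 is given only for Cdkn2b and Cdkn2aipnl. It changed further calls there, which are not given.

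The clearest difference among these genes was a higher level of the INK4 inhibitor gene Cdkn2c in the IKZF1 group, 1.74-fold on average. Cyclin D3, Cdk4, Cdkn2d and, by its brighter probe set, Cdkn1b had log2 differences between -0.11 and 0.08. Those of Cdkn2a (0.93), Ccnd1 (-0.78), Cdk6 (0.16) and Ccnd2 (0.01) came with a wider spread among the empty vector arrays than Cdkn2c had. In limma with group as the only term, 0 of the 9 genes passed an adjusted p under 0.05 over all genes, where 2.25% of all genes did. At an unadjusted p under 0.05 there was 1 of the 9, Cdkn2c, against 18.4% of all genes. With replicate number as a block 1 of 9 passed, Cdkn2c, where 7.21% of all genes did. Without empty vector 3 there were 2, Cdkn2c and Ccnd1, where 4.75% of all genes passed. The arrays of the 2 groups did not overlap for 1 of the 9 genes, again Cdkn2c, a smaller share than the 26.5% of all genes. The 3 differences between same-numbered arrays had one sign for 6 of the 9 genes and for 50.6% of all genes. The median difference was 0.07 over the 9 genes and 0.03 over all genes.

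**Figure D1:**
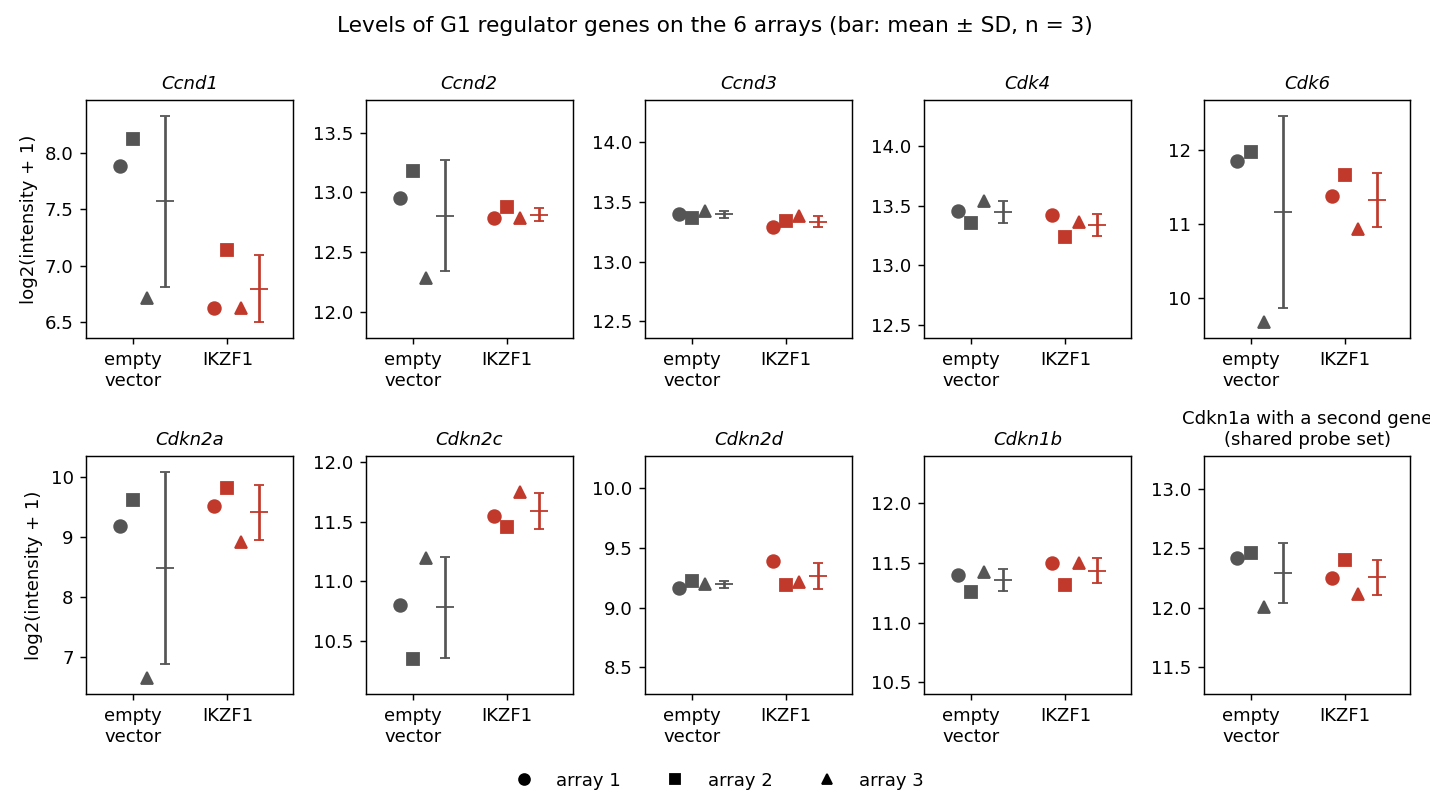
Log2 levels of the 9 genes and of the probe set that Cdkn1a shares, on the 3 empty vector arrays (grey) and the 3 IKZF1 arrays (red); symbols give the array number and bars the mean ± SD. The panels have their own vertical ranges. Cdkn2c is the one panel of the 10 in which all red points lie above all grey points. Empty vector 3 (grey triangle) is the lowest of the 6 points for Cdk6, Cdkn2a, Ccnd2 and the shared probe set.

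Cdkn2c encodes p18INK4c, an INK4 inhibitor that B-lineage cells are known to use when they leave the cell cycle. Its upstream sequence is shown because it is the gene of this set that differed most clearly when Ikaros was supplied. The 250 bases before its outer RefSeq start site (GRCm38.p6, chr4:109666757-109667006, minus strand) are printed 5′ to 3′ on the gene's strand, with the words GGGAA or its reverse complement TTCCC, the core bound by Ikaros, in capitals.
Cdkn2c: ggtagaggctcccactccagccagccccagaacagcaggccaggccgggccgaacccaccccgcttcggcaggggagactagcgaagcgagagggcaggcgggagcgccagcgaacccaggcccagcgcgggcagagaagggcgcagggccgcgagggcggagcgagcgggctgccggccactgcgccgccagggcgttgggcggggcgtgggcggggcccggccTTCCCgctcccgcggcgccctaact
This window held 1 such word, at bases -25 to -21 from the start site, and the window before the inner start site of Cdkn2c (chr4:109665373-109665622, minus strand), not printed, held 0. The word is common: 56.2% of 32851 RefSeq promoter windows of the same length held it on either strand, and 7 of the 12 windows of the 8 genes of this set found in that table did. A match describes the letters and is not evidence of binding.

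Cdkn2c was at log2 levels of 10.80, 10.35 and 11.20 on empty vector arrays 1 to 3 and of 11.55, 11.46 and 11.75 on IKZF1 arrays 1 to 3. Every IKZF1 array was higher than every empty vector array, and the closest approach was between empty vector 3 and IKZF1 2. The mean difference was 0.80 ± 0.21 (SE, n = 3 arrays per group), a 1.74-fold higher level, with a 95% interval of 0.30 to 1.30 and an adjusted p of 0.12 in limma. The same-numbered arrays differed by 0.75, 1.10 and 0.56, and with replicate number as a block the gene rose with an adjusted p of 0.022 (limma, 95% interval 0.52 to 1.08). Without empty vector 3 the difference was 1.01 ± 0.15 (limma adjusted p = 0.020). The direction was the same under quantile normalization, cyclic loess and centring of the arrays.

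The level of Cdkn2c followed the order of the S phase genes within each group. The summed intensity of 19 genes of DNA replication and nucleotide supply was 60810, 48624 and 73616 on empty vector arrays 1 to 3 and 58126, 56062 and 60856 on IKZF1 arrays 1 to 3. In both groups array 2 was lowest and array 3 highest for both measures. Between the groups they parted, because IKZF1 2 had more Cdkn2c than empty vector 3 but a lower sum of S phase genes. The part of cell cycle phase in the difference of Cdkn2c was not tested.

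Cdkn2d encodes p19INK4d, a close relative of p18INK4c. Its levels were 9.17, 9.22 and 9.20 with empty vector and 9.39, 9.19 and 9.22 with IKZF1. IKZF1 1 stood above the other 5 arrays, which lay close together. The difference was 0.07 ± 0.07 (SE, limma adjusted p = 0.63), with a 95% interval of -0.10 to 0.24 that leaves out a difference of the size seen in Cdkn2c.

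Cdkn2a yields from separate starts the INK4 inhibitor p16INK4a and p19ARF, a protein that stabilises p53, and its probe set cannot be split between them here. The sequences before both RefSeq start sites, and that before the start site of Cdk6, are shown because these 2 genes moved together from array to array, as described below. Each is 250 bases, printed as for Cdkn2c with GGGAA and TTCCC in capitals: Cdkn2a outer start (GRCm38.p6, chr4:89294620-89294869, minus strand), Cdkn2a inner start (chr4:89282193-89282442, minus strand) and Cdk6 (chr5:3343643-3343892, plus strand).
Cdkn2a outer start: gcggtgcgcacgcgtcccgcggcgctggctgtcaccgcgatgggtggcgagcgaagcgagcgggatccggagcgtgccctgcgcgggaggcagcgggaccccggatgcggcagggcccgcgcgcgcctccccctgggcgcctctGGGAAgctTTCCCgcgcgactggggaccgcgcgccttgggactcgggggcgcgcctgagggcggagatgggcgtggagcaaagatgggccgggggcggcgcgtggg
Cdkn2a inner start: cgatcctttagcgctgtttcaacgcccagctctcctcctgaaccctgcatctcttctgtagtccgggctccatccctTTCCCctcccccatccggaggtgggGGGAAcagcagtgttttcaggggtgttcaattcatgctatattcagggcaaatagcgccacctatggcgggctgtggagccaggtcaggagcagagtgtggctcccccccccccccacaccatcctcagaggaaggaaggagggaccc
Cdk6: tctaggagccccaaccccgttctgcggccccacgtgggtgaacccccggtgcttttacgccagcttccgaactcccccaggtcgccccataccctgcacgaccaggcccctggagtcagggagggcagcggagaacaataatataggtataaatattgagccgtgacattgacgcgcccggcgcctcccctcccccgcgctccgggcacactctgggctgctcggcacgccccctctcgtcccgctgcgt
Each window of Cdkn2a held 2 core words and that of Cdk6 held 0. In the outer window of Cdkn2a the second word, at bases -98 to -94, lies inside TTTCCCGC, one of 3 spellings searched for an E2F site (TTTCGCGC, TTTGGCGC and TTTCCCGC, both strands). It was the only window of the 12 with one of these, and 1.53% of all windows held one.

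Cdkn2a was at 9.18, 9.62 and 6.65 on empty vector arrays 1 to 3 and at 9.52, 9.81 and 8.91 on IKZF1 arrays 1 to 3. Empty vector 3 was far below all other arrays, near the background level, and the remaining arrays of the groups overlapped. The difference of 0.93 ± 0.75 (SE, limma adjusted p = 0.54) rested largely on that array. Without it the groups differed by 0.01 ± 0.26 (limma adjusted p = 0.99). IKZF1 3 was also the lowest of its group. Without both arrays numbered 3 the difference was 0.26 ± 0.17 (limma adjusted p = 0.50). Same-numbered arrays differed by 0.33, 0.19 and 2.26. With the replicate block the 95% interval was -0.07 to 1.93 and the adjusted p in limma 0.22.

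Cdkn2b, which encodes p15INK4b and lies beside Cdkn2a, is no gene of the set but comes from the same locus and was among the partner genes examined. It was at 7.76, 8.33 and 6.69 with empty vector and at 8.74, 8.87 and 8.29 with IKZF1. As with Cdkn2a, empty vector 3 was lowest, and IKZF1 3 lay just below empty vector 2. The difference was 1.04 ± 0.40 (SE, limma adjusted p = 0.24). All 3 same-numbered differences were positive (0.98, 0.55 and 1.60), and with the replicate block the gene rose with a limma adjusted p of 0.038, while without empty vector 3 the difference was 0.59 (adjusted p = 0.21).

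Cdkn1b encodes p27KIP1, a CIP/KIP inhibitor whose amount is known to be set largely by protein turnover. By its brighter probe set it was at 11.40, 11.25 and 11.43 with empty vector and at 11.50, 11.31 and 11.50 with IKZF1. The groups overlapped, although each IKZF1 array was slightly above its same-numbered partner. The difference was 0.08 ± 0.08 (SE, limma adjusted p = 0.64, 95% interval -0.12 to 0.27). The dimmer probe set had the opposite sign, -0.20 ± 0.11 (limma adjusted p = 0.38 among the probe sets with a symbol), so the direction of Cdkn1b is not settled by these arrays.

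Cdkn1a encodes p21CIP1, the CDK inhibitor that p53 induces. The probe set it shares with 4930567H12Rik read 12.42, 12.46 and 12.00 with empty vector and 12.25, 12.41 and 12.11 with IKZF1. Array 3 was lowest in each group and the groups overlapped. The difference was -0.04 ± 0.14 (SE, limma adjusted p = 0.90 among probe sets with 1 or several symbols), and it is a value of the shared signal, not of Cdkn1a.

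Ccnd1 encodes cyclin D1, which B-lineage cells are known to use little. It was at 7.89, 8.13 and 6.71 on empty vector arrays 1 to 3 and at 6.63, 7.14 and 6.62 on IKZF1 arrays 1 to 3. Empty vector 1 and 2 were above all IKZF1 arrays, whereas empty vector 3 lay among them. The difference was -0.78 ± 0.37 (SE, limma adjusted p = 0.33). Same-numbered arrays differed by -1.26, -0.98 and -0.09, and with the replicate block the limma adjusted p was 0.096. Without empty vector 3 the gene fell by 1.21 ± 0.18 (limma adjusted p = 0.018). These levels are close to background, so that the size of the difference may be understated.

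Ccnd2 encodes cyclin D2, a cytokine-responsive D cyclin of lymphocytes. It was at 12.95, 13.18 and 12.28 with empty vector and at 12.78, 12.87 and 12.78 with IKZF1. The IKZF1 arrays lay close together and between the extremes of the empty vector arrays. The difference was 0.01 ± 0.22 (SE, limma adjusted p = 0.99), and -0.25 ± 0.09 without empty vector 3 (limma adjusted p = 0.19), so its sign depended on that array; it was also -0.04 with arrays centred on their medians.

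Ccnd3 encodes cyclin D3, the D cyclin on which dividing pre-B cells are known to depend. Its levels were 13.40, 13.36 and 13.42 with empty vector and 13.29, 13.34 and 13.38 with IKZF1. They varied little and overlapped. The difference was -0.06 ± 0.06 (SE, limma adjusted p = 0.60, 95% interval -0.20 to 0.08), and 0.0013 after quantile normalization.

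Cdk4, a partner kinase of all D cyclins, was at 13.46, 13.35 and 13.54 with empty vector and at 13.42, 13.23 and 13.36 with IKZF1. Each IKZF1 array was lower than its same-numbered partner, by 0.04 to 0.18, but the groups overlapped. The difference was -0.11 ± 0.08 (SE, limma adjusted p = 0.48, 95% interval -0.30 to 0.08). The intervals of Ccnd3 and Cdk4 do not reach a difference of the size measured for Cdkn2c, in either direction.

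Cdk6, the other partner kinase and one known to be used by BCR-ABL1 leukaemia cells, varied far more than Cdk4. It was at 11.85, 11.98 and 9.67 with empty vector and at 11.37, 11.67 and 10.94 with IKZF1. Array 3 was lowest in both groups, most of all in the empty vector group. The difference of 0.16 ± 0.61 (SE, limma adjusted p = 0.91) turned to -0.59 ± 0.20 without empty vector 3 (limma adjusted p = 0.17), so these arrays do not settle its direction.

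**Figure D2:**
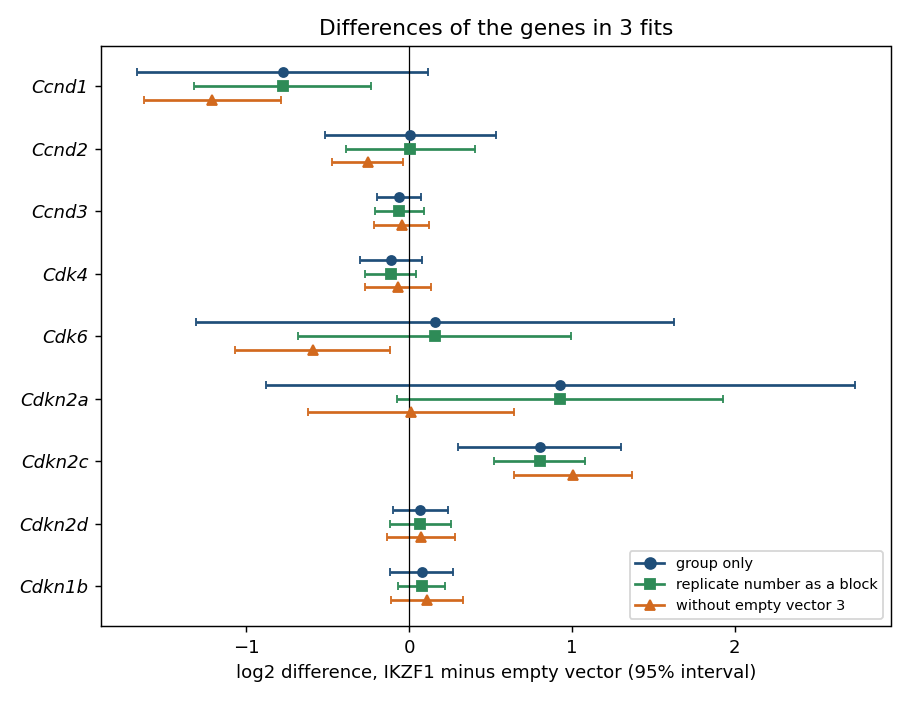
Log2 difference, IKZF1 minus empty vector, of each of the 9 genes with its 95% interval in limma, with group as the only term, with replicate number as a block and without empty vector 3. Cdkn2c lies above 0 in all 3 fits; Ccnd2 and Cdk6 change sign without empty vector 3, and with group as the only term the intervals of Ccnd3, Cdk4, Cdkn2d and Cdkn1b are the narrowest.

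The variation between arrays was uneven among the 9 genes. Empty vector 3 differed from the mean of empty vector 1 and 2 by -2.75 for Cdkn2a, -2.25 for Cdk6, -1.30 for Ccnd1 and -0.79 for Ccnd2, which placed them at the 0.395, 0.625, 1.90 and 4.25 percentiles of 12650 genes above background. Cdkn2c went the other way, by 0.62, at the 96.7 percentile. IKZF1 3 differed from the mean of IKZF1 1 and 2 with the same signs but less, by -0.75, -0.58, -0.27 and -0.05 for those 4 genes and by 0.25 for Cdkn2c. Over the 6 arrays Pearson's r was 0.96 between Cdk6 and Ccnd2, 0.94 between Cdk6 and Cdkn2a and -0.91 between Cdkn2c and Ccnd1; without empty vector 3 they were 0.82, 0.59 and -0.97 over 5 arrays, so the first pairs rested in part on that array. The arrays share processing and may share cells, which the labels do not say, and these values are descriptions. Empty vector 3 also had the highest sum of S phase genes, 73616.

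**Figure D3:**
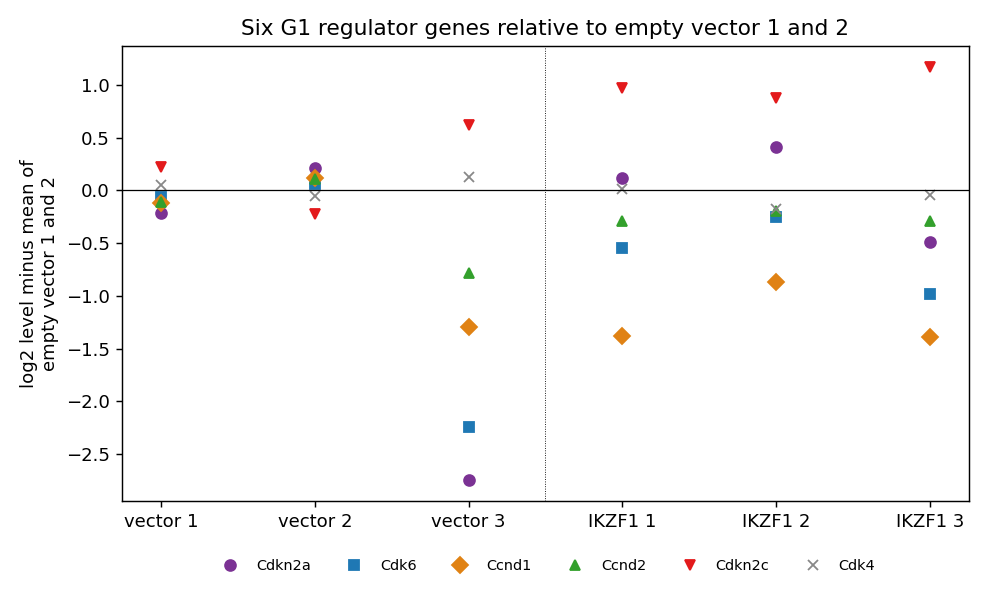
Log2 level of 6 of the genes on each array, relative to the mean of empty vector 1 and 2; each symbol is a gene and the dotted line divides the groups. On empty vector 3 Cdkn2a lies at -2.75, Cdk6 at -2.25 and Ccnd1 at -1.30, while Cdkn2c lies at 0.62. On the IKZF1 arrays Cdkn2c is above 0 and Ccnd1 below 0 throughout, as they also are on empty vector 3.

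The genes whose levels most resembled those of the clearest members over the 6 arrays were sought among genes above background. For Cdkn2c they were Tubgcp4, a component of the gamma-tubulin complex, Jrk and the kinase gene Mast2, with r of 0.998, 0.998 and 0.997. Their differences were smaller, 0.24, 0.32 and 0.32, and none passed (limma adjusted p of 0.17, 0.14 and 0.13). For Ccnd1 they were Idh3b, a subunit of a citric acid cycle enzyme (r = 0.9998), Cym and the galectin gene Lgals9 (r of 0.994 and 0.993), with limma adjusted p of 0.48, 0.38 and 0.44. Of 12649 genes, 9 had r over 0.99 with Cdkn2c and 8 with Ccnd1, and 156 and 164 had r over 0.95.

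The genes around this set in the G1 network were taken in 7 lists. Of their 132 genes 2 passed (1.52%, against 2.25% of all genes) and 15 with the replicate block (11.4%, against 7.21%). Among all genes 1.12% were higher and 1.13% lower with group alone, and 3.36% were higher and 3.85% lower with the block; 18.4% had an unadjusted p under 0.05 and 40.8% a difference below 0. Of 18 partners of G1 and S phase, among them the E cyclins, Cdk2 and the subunits of the CDK-activating kinase, 0 passed in limma, with or without the replicate block, and 5 (all genes 18.4%) had an unadjusted p under 0.05; 15 (all genes 40.8%) had a difference below 0 (median -0.10). The smallest p values were those of Ccnh, the cyclin of the CDK-activating kinase (-0.27, adjusted p = 0.14), and Ccnc (-0.39, adjusted p = 0.16). None of 5 other CDK inhibitors and related genes passed in limma (0 of 5, all genes 2.25%; 2 at an unadjusted p under 0.05, all genes 18.4%). With the block 1 rose, Cdkn2b (all genes 3.36%). Cdkn2aipnl had -0.31 (limma adjusted p = 0.23, and 0.023 without empty vector 3).

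Of 18 pocket proteins, E2F factors and their complex partners, 0 passed in limma, 3 reached an unadjusted p under 0.05, near the 18.4% of all genes, and 3 were lower with the replicate block (all genes 3.85%); 13 of 18 had a difference below 0 (all genes 40.8%; median -0.08). These 3 were E2f8, an atypical E2F that represses transcription, and Lin9 and Lin54, subunits of the complex that pairs with pocket proteins in resting cells. E2f8 was at 11.81, 11.68 and 11.62 with empty vector and at 11.37, 11.34 and 11.36 with IKZF1, without overlap. Its difference was -0.35 ± 0.07 (SE, limma adjusted p = 0.060, and 0.040 with the block). Lin9 had -0.38 (limma adjusted p = 0.15, and 0.028 with the block) and Lin54, named after its value was seen, -0.35 (0.15 and 0.049). Rb1, the retinoblastoma gene itself, had -0.08 (limma adjusted p = 0.77) and E2f1 0.14 (0.75), both also named after their values were seen.

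Of 20 genes of D cyclin and inhibitor turnover 0 passed in limma, 4 reached an unadjusted p under 0.05 and 1 was lower with the block, shares near the 18.4% and 3.85% of all genes. That was Ubac1, a subunit of a ubiquitin ligase that acts on p27KIP1 (-0.34, limma adjusted p = 0.090, and 0.039 with the block); Rbx1 had -0.21 (adjusted p = 0.18). Of 19 S phase genes driven by E2F 0 passed in limma, with the block or without, 1 reached an unadjusted p under 0.05 (all genes 18.4%), and 11 had a difference below 0 (all genes 40.8%; median -0.07). The licensing factor gene Cdt1 had -0.25 and the thymidine kinase gene Tk1 -0.51, with limma adjusted p of 0.19 and 0.29.

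Of 20 p53 targets other than Cdkn1a, 1 fell, Sesn2, an inhibitor of mTORC1 signalling that amino acid stress also induces (-1.22 ± 0.16, limma adjusted p = 0.023), and 19 did not pass (all genes 1.13% lower, 1.12% higher). An unadjusted p under 0.05 in limma was reached by 5 of the 20 (all genes 18.4%). With the block 1 was lower, again Sesn2, and 3 were higher (all genes 3.85% and 3.36%): Btg2 (0.87, adjusted p = 0.0067), Gadd45a (0.65, adjusted p = 0.023) and Rrm2b (0.49, adjusted p = 0.044), all named after their values were seen. Mdm2, the negative regulator that p53 induces, had 0.10 (limma adjusted p = 0.56) and was also named after its value was seen. Of 32 regulators of the 10 genes, 1 rose, Id3, an inhibitor of E proteins (0.56 ± 0.08, limma adjusted p = 0.024), and 31 did not pass. An unadjusted p under 0.05 in limma was reached by 10 of the 32 (all genes 18.4%). The block gave 4 higher and 2 lower, where 3.36% and 3.85% of all genes were. Of these, Klf2, a quiescence factor of lymphocytes, lay between 8.39 and 9.59 with empty vector and between 9.97 and 10.24 with IKZF1 (difference 1.15, limma adjusted p = 0.11, and 0.026 with the block). Myc, which drives expression of Ccnd2 and Cdk4, had -0.39 (limma adjusted p = 0.20, and 0.041 with the block). Cbx7 (0.33) and Cbx8 (-0.41), both Polycomb proteins that act at the Cdkn2a locus, moved in opposite directions with the block (limma adjusted p = 0.039 and 0.022). Mxd4, also higher with the block, had 0.50 (limma adjusted p = 0.21, and 0.049 with the block). Klf2, Myc, Cbx7, Cbx8 and Mxd4 were named after their values were seen.

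**Figure D4:**
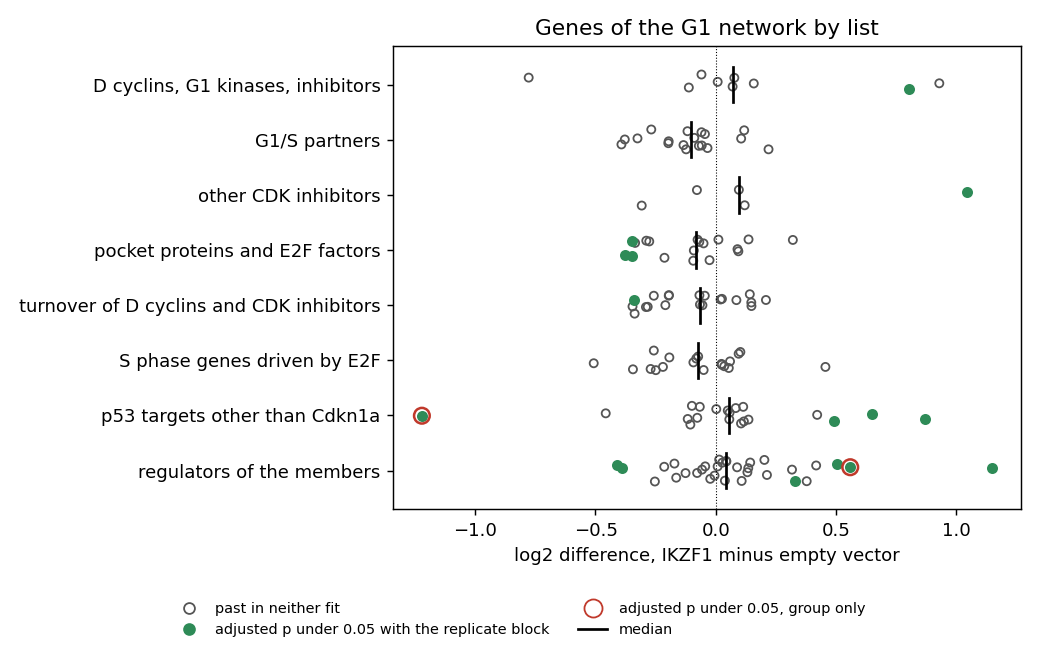
Log2 difference, IKZF1 minus empty vector, of every measured gene of the set and of 7 lists of the G1 network; vertical spread within a list has no meaning. Filled green points passed with replicate number as a block, red rings passed with group as the only term (Sesn2 and Id3), and black bars are medians, which lie between -0.10 and 0.10.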

How the data were processed

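The authors normalized the arrays with RMA (robust multi-array average), per the submitters' processing notes, whose version is not given in the sources used here. As deposited, the table holds 1 linear intensity per probe set and array, from 11.1 to 23523; linear scale was inferred from that range. As RMA makes the distributions of arrays alike, a change shared by most transcripts would be damped. Of 35421 probe sets 21789 pair with 1 symbol in the platform's table; for genes with several, the probe set of highest mean was used, giving 19936 genes, unfiltered for level. The number of arrays limits the precision.

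From these log2(intensity + 1) was computed and tested with limma 3.58.1 in R 4.3.3 (lmFit, eBayes, 2-sided), with Benjamini-Hochberg adjustment over all genes and a threshold of 0.05; group was the only term. Deviations from group means of same-numbered arrays correlated with r = 0.24, 0.60 and 0.66, all over the limit of 0.1 set for pairing, but empty vector 1 and IKZF1 2 also reached 0.11; the labels do not say what the numbers mark. The block fit is therefore given where it changes a call. The fit was tested on simulated data, where large changes were mostly recovered and small ones often missed, more so with the block. The share of false calls without the block was above the nominal threshold. The simulated noise was independent between arrays, with no deviation shared by same-numbered arrays. The simulation therefore cannot rate the block fit on these arrays. Upstream windows were read from a RefSeq table of promoter sequences, GRCm38.p6, and not cut from a genome.

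All 10 genes are named; of each list, members past the threshold, up to 4, or else the 2 with the smallest p; and the 3 genes most like each of the 2 members with the smallest p. Apart from the transduced gene Ikzf1, others are marked as named after their values were seen. The cell type markers other than Ly6g carry no such mark, but were also named with their values known. Members and lists were chosen with earlier results of these data known. Alternatives covered the block, each array left out, both arrays numbered 3 left out, a pseudocount of 16, a background filter, 3 scalings, 2 priors, array weights, a random block and the choice of probe set.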

Additional observations from a re-analysis of the deposited data

How the results depend on the processing

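Of 162 recomputed differences of the 9 genes, 143 kept their sign and their side of the threshold, 8 newly passed it and 11 changed sign. Cdkn2c was positive in all 18 settings (adjusted p from 0.020 to 0.35) and passed in 5: with the replicate block (0.80, adjusted p = 0.022), the random block (0.80, 0.029), array weights (0.89, 0.021), without empty vector 3 and without both arrays numbered 3 (0.93, 0.047); leaving out 1 array gave 0.59 to 1.01. Ccnd1 was negative in all 18 and passed in 3: with array weights (-1.10, 0.046), without empty vector 3 and without both arrays numbered 3 (-1.12, 0.044); leaving out 1 array gave -1.21 to -0.50. Ccnd2 changed sign with array weights (-0.12), centring (-0.035) and without both arrays numbered 3 (-0.24), and ran from -0.25 to 0.19 with 1 array left out. Cdk6 did so with array weights (-0.40) and without both arrays numbered 3 (-0.40), and ran from -0.59 to 0.56. Ccnd3 was 0.0013 after quantile normalization, and Cdkn1b -0.060 by the mean of its probe sets. Cdkn2a kept its sign but ran from 0.01 to 1.49 with 1 array left out. The replicate block changed no other call of the 9 genes. The cause of these changes was not tested.

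The number of the 9 genes past the threshold was 0 with group alone, 1 with the replicate block, 1 with the random block, 2 with array weights, and 0 to 2 with arrays left out. The number of all genes was 448 with group alone, 1438 with the replicate block, 1481 with array weights, 1664 with the random block, and 24 to 947 with 1 array left out. Leaving out both arrays numbered 3 and testing probe sets with several symbols were added after the data were seen. Dim signal limits Ccnd1.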
